A study of Mus musculus with 17 samples.

Results

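The 10 BCL2 family genes described here set whether a cell keeps its mitochondria intact or starts apoptosis: Mcl1, Bcl2l1, Bcl2, Bcl2a1a, Bcl2a1b, Bcl2a1d, Bcl2l11, Bid, Bax and Bak1. They were taken by gene symbol from a table of 24453 gene models, and all 10 were present. MCL1, BCL-XL (the main product of Bcl2l1), BCL2 and the A1 proteins of the Bcl2a1 genes restrain apoptosis by holding pro-apoptotic relatives in check. BIM, the product of Bcl2l11, and BID belong to the BH3-only proteins, which sense stress and either occupy the restraining proteins or switch on the effectors. BAX and BAK, the effectors, form pores in the outer mitochondrial membrane and let cytochrome c reach the caspases. In macrophages MCL1 is a short-lived protein needed for survival, and Bcl2a1 genes are known targets of NF-κB, the transcription factor that Toll-like receptors activate.

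Gene expression was measured by polyA RNA-seq in 13 libraries from mouse macrophages of 2 kinds. Immortalised bone marrow-derived macrophages (iBMDMs) of C57Bl/6EiJ genotype had been infected with a retrovirus carrying Myc and mutant BRAF, which all 4 iBMDM groups share. They also expressed Cas9 with EGFP and received a lentivirus with 2 guides per target, so each group was a population of cells sorted for the tagBFP2 of that virus. The groups are called Scramble (labelled Scramble Control, zsGreen in the titles), Atf3KO, JunKO and JunDKO, the last edited at Jund, with 2 libraries each and vehicle as the treatment label. Thioglycollate-elicited macrophages (TGEMs), primary cells flushed from the peritoneum of 8-week-old mice, were given vehicle (PBS) or Kdo2 lipid A (KLA, 1 h), which activates the receptor TLR4. From C57Bl/6EiJ mice there was 1 library of each treatment, and from Balb/cJ mice 1 with vehicle and 2 with KLA. Every library carries the label male, but Xist had 863 to 8676 reads in the TGEM libraries and 0 to 3 in iBMDMs. The labels do not say whether libraries of a group came from separate cultures or animals, so p-values measure the spread between these libraries, which may be technical.

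Library depth was 1553296 to 18444430 reads, and no pair of libraries was identical (0 pairs). The libraries labelled Atf3KO stood apart, with reads of 10425 and 10631 gene models against 11884 to 12533 in the other iBMDM libraries. Atf3KO replicate 2 also carries a later title date than the other 7 iBMDM libraries. The mRNA of Atf3 was not lower in the libraries labelled Atf3KO (154 and 169 RPKM, against 80.7 and 77.4 in Scramble). Jun measured 26.2 and 20.5 RPKM in JunKO (Scramble 17.6 and 18.5), and Jund 6.94 and 6.07 RPKM in JunDKO (Scramble 9.19 and 8.33). The mRNA of Atf3 was thus higher where the label names a knockout. Jun was not lower in the libraries labelled JunKO either, both of which lay above both Scramble libraries without passing the test (log2 difference 0.34 ± 0.38, SE; limma-trend adjusted p = 0.912). The study states that its western blots bore out the knockouts at the protein level, which mRNA levels do not measure. Atf3KO, JunKO and JunDKO are used below as the names of labels, and every direction drawn from them rests on those labels. All 8 macrophage markers were present in every group, with a sum of 16830 to 33030 RPKM in iBMDMs and 8015 to 11010 RPKM in TGEMs. The summed level of B lymphocyte markers was at most 0.488 RPKM in iBMDMs and 10.1 to 23.9 RPKM in TGEMs. T cell markers summed to 0 RPKM in iBMDMs and at most 2.27 RPKM in TGEMs, those of eosinophils and mast cells to at most 1.29 and 6.16 RPKM, respectively. Neutrophil markers summed to 12.5 to 51.7 RPKM in iBMDMs and 15.2 to 35.5 RPKM in TGEMs, mostly from S100a8 (up to 41.1 RPKM) and Csf3r (up to 22.2 RPKM), while Camp, Ly6g, Retnlg and S100a9 were at 0 throughout.

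The 3 Bcl2a1 genes lie on chromosome 9 within a cluster of near copies, and how well their reads can be told apart bears on every value given for them. In the coordinates of the deposited table (GRCm38, the mm10 build), Bcl2a1d spans chr9:88723288-88731850 on the minus strand. Bcl2a1a spans chr9:88956920-88962416 and Bcl2a1b chr9:89199273-89207838, both on the plus strand. Each coding sequence in RefSeq (GRCm38.p6) has 519 bases, of which 12 differ between any of the 3. Bcl2a1a and Bcl2a1b share 97.88% of them, Bcl2a1a and Bcl2a1d 98.65%, and Bcl2a1b and Bcl2a1d 98.84%. The first 120 coding bases are shown because they hold 7 of the 12 differing positions, which are in capitals.
Bcl2a1a (chr9:88957051-88957170, plus strand): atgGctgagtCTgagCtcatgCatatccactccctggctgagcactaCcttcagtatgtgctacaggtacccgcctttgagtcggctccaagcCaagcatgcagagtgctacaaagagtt
Bcl2a1b (chr9:89199360-89199479, plus strand): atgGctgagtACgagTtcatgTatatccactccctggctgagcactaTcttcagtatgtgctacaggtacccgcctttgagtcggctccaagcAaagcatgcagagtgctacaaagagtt
Bcl2a1d (chr9:88731600-88731719, minus strand): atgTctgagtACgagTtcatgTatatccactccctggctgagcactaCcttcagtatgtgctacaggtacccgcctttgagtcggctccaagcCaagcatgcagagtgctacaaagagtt
Within these bases, a read that covers none of the capitals fits more than 1 of these genes. Of all 50-base windows along the exons, 83.53% of those of Bcl2a1d, 68.01% of those of Bcl2a1a and 57.76% of those of Bcl2a1b were identical to a window of another paralog. How the deposited counting placed such reads is not given in the sources used here, so the split between the paralogs is uncertain.

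Mcl1 and Bax were the most abundant members per exonic kilobase in Scramble iBMDMs. Mcl1 measured 141 and 177 RPKM there, and Bax 125 and 79.4 RPKM. Bid (42.4 and 32.9 RPKM), Bcl2a1b (32.04 and 42.3 RPKM) and Bak1 (33.0 and 29.9 RPKM) followed. Their mean levels were 37.6 ± 6.71, 37.2 ± 7.24 and 31.4 ± 2.20 RPKM (SD, n = 2), and neighbours in this order overlapped. Bcl2l1 (20.8 and 17.2 RPKM) lay below these, then Bcl2l11 (8.21 and 9.01 RPKM) and Bcl2 (2.59 and 4.87 RPKM), each without overlap with its neighbours in the order. Bcl2a1d had 2 and 3 reads in the Scramble libraries and Bcl2a1a had 0 reads in both.

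**Figure D1:**
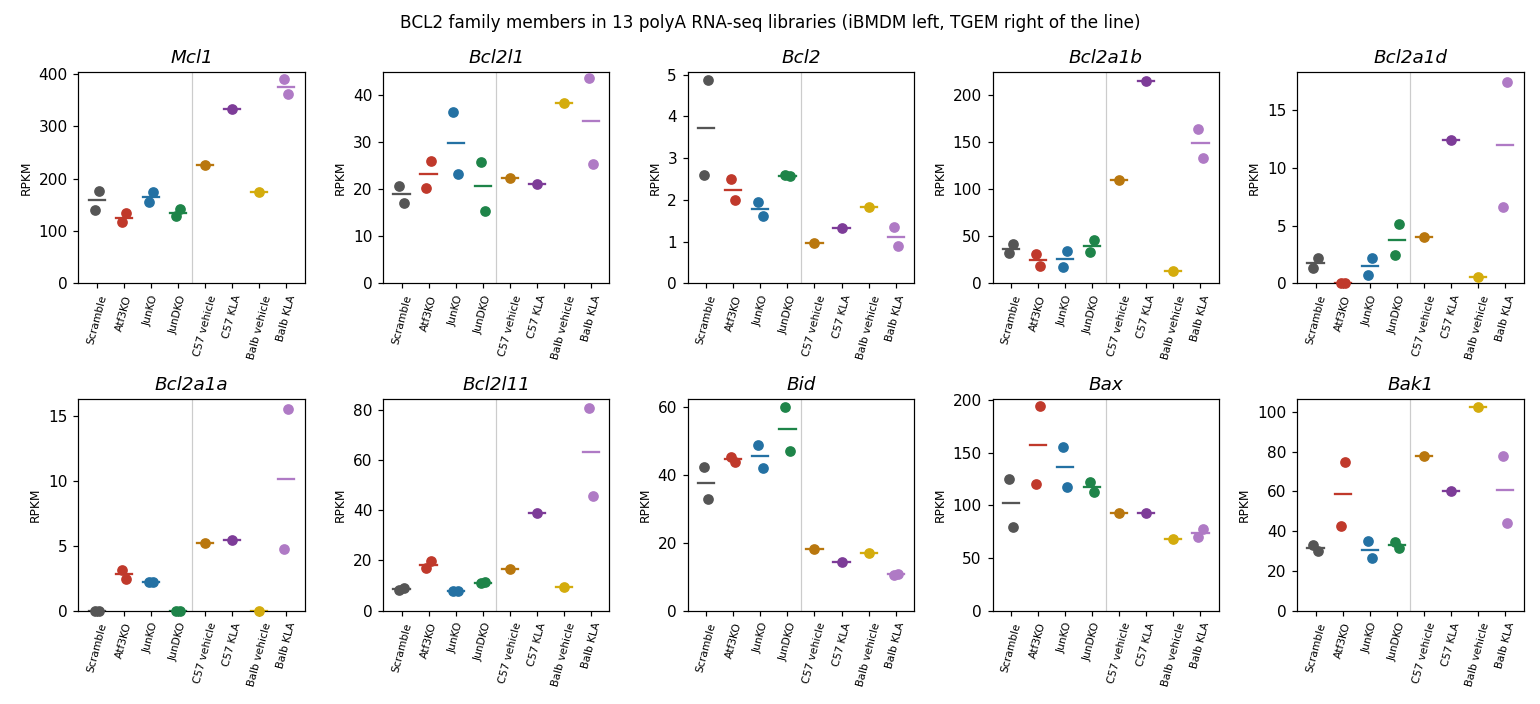
RPKM of the 10 BCL2 family genes in each of 13 libraries, 1 panel per gene with its own linear axis from 0. Points are libraries, short lines are group means, and the grey line separates the 8 iBMDM libraries from the 5 TGEM libraries. Bcl2l11 sat at 16.9 and 19.6 RPKM in the libraries labelled Atf3KO, above the other 6 iBMDM libraries, and Bid was lower in every TGEM library than in every iBMDM library.

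The comparison of each knockout group with Scramble asked which members change with loss of the AP-1 protein named in the label. In the libraries labelled Atf3KO 4 of the 10 members had an adjusted p under 0.05 (limma-trend on log2(RPKM + 1), Benjamini-Hochberg over 10691 tested genes), against 41.2% of all tested genes. Bcl2l11, Bcl2a1a and Bak1 rose and Bcl2a1d fell. Bcl2a1a was at 0 in Scramble and reached the mean of 1 RPKM over the iBMDM libraries needed for testing only through the groups that held it, so it had to differ and the count is 3 members without it. A gene was called where it also changed at least 2-fold and reached a group mean of 16 RPKM. Bcl2l11 alone met this among the members (1 of 10), beside 12.5% of all tested genes. Neither share of members stood above that background. The median log2 fold change was 0.26 over the members and 0.05 over all genes tested.

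Bcl2l11 (chr2:128126038-128162547, plus strand), whose product BIM is a BH3-only protein that binds all restraining members, measured 8.21 and 9.01 RPKM in Scramble and 16.9 and 19.6 RPKM in the libraries labelled Atf3KO. It measured 7.72 and 7.92 RPKM in JunKO and 11.0 and 11.3 RPKM in JunDKO. Both libraries labelled Atf3KO lay above the other 6 iBMDM libraries, and the remaining groups did not overlap each other either. Against Scramble its log2 fold change was 1.00 ± 0.19 (SE, 2 libraries in each group, limma-trend adjusted p = 0.00481). The adjusted p stayed under 0.05 in all 14 alternatives, over which the change spanned 0.77 to 1.14. It lay at the 2-fold limit, and the call was lost where the change came out smaller, as without Atf3KO replicate 2 (0.90) or without Scramble replicate 1 (0.94). Across 10645 tested genes the log2 fold change in this comparison went with GC content (Spearman's rho = 0.49, over genes that are no independent replicates). With each library's GC trend removed the change of Bcl2l11 was 1.14.

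Bid (chr6:120893119-120916820, minus strand), which links the death receptors to mitochondria once caspase-8 has cut it, stood at 45.3 and 43.8 RPKM in the libraries labelled Atf3KO, 48.9 and 42.1 RPKM in JunKO and 59.8 and 47.0 RPKM in JunDKO. In Scramble it measured 42.4 and 32.9 RPKM. The JunDKO and Atf3KO-labelled libraries lay above both Scramble libraries and the JunKO libraries overlapped them. Its largest change was in JunDKO (log2 difference 0.49 ± 0.20, SE; limma-trend adjusted p = 0.161), which did not pass the test.

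The effectors Bak1 (chr17:27019812-27028626, minus strand) and Bax (chr7:45461695-45466898, minus strand) differed in spread. Bak1 stood at 42.5 and 74.8 RPKM in the libraries labelled Atf3KO, where Scramble measured 33.0 and 29.9 RPKM. In JunKO it measured 35.0 and 26.3 RPKM and in JunDKO 34.5 and 31.6 RPKM, so the libraries labelled Atf3KO lay above all others and apart from each other. The difference from Scramble was 0.83 ± 0.27 on the log2 scale (SE; limma-trend adjusted p = 0.0425). That pass was lost in 9 of 14 alternatives (adjusted p 0.00910 to 0.185). The change was 0.43 without Atf3KO replicate 2 and 0.32 with the GC trend removed, while without Atf3KO replicate 1 it was 1.23.

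Bax stood at 120 and 195 RPKM in the libraries labelled Atf3KO, 155 and 117 RPKM in JunKO and 122 and 113 RPKM in JunDKO. In Scramble it measured 125 and 79.4 RPKM, so the Scramble libraries overlapped every knockout group. None of its changes passed the test (limma-trend adjusted p = 0.129 in the libraries labelled Atf3KO, 0.820 in JunKO and 0.651 in JunDKO). In the libraries labelled Atf3KO its difference spanned -0.07 to 0.96 over 14 alternatives, with 0.96 without Atf3KO replicate 1. It passed with crossed replicate numbers (limma-trend adjusted p = 0.0177), but that setting was chosen after seeing the data.

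The restraining members other than the Bcl2a1 genes did not pass the test in any knockout. They are Mcl1 (chr3:95658721-95663178, plus strand), Bcl2l1 (chr2:152780664-152831728, minus strand) and Bcl2 (chr1:106538176-106714290, minus strand). Mcl1 stood at 117 and 135 RPKM in the libraries labelled Atf3KO, 155 and 174 RPKM in JunKO and 129 and 142 RPKM in JunDKO, against 141 and 177 RPKM in Scramble. The libraries labelled Atf3KO lay below Scramble and the other groups overlapped it. The log2 fold changes of Mcl1 were -0.33 ± 0.18, 0.06 ± 0.18 and -0.22 ± 0.18 (SE) in that order of groups. Bcl2l1 stood at 20.3 and 26.0 RPKM in the libraries labelled Atf3KO and 25.8 and 15.5 RPKM in JunDKO, both overlapping Scramble. In JunKO it measured 36.4 and 23.2 RPKM, above both Scramble libraries, a log2 difference of 0.60 ± 0.30 (SE; limma-trend adjusted p = 0.723). Bcl2, the founding member of the family, stayed between 1.62 and 4.87 RPKM in all 8 iBMDM libraries. Its highest value was Scramble replicate 2, and the libraries labelled Atf3KO (2.49 and 1.99 RPKM) lay below both Scramble libraries (log2 difference -0.50 ± 0.30, SE; limma-trend adjusted p = 0.210). Both JunKO libraries (1.95 and 1.62 RPKM) did so too (log2 difference -0.72 ± 0.30, SE; limma-trend adjusted p = 0.613).

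Bcl2a1b held 85.2% to 95.9% of the reads of the 3 paralogs in iBMDMs. It stood at 30.8 and 18.4 RPKM in the libraries labelled Atf3KO, 17.8 and 34.5 RPKM in JunKO, 33.0 and 46.5 RPKM in JunDKO and 32.04 and 42.3 RPKM in Scramble. The libraries labelled Atf3KO lay below Scramble, and no change passed the test (limma-trend adjusted p = 0.207, 0.810 and 0.900 for the 3 knockouts in that order). Crossed replicate numbers, a setting chosen after seeing the data, gave a pass for Atf3KO against Scramble (limma-trend adjusted p = 0.0209). Against JunDKO Bcl2a1b did not pass either (limma-trend adjusted p = 0.157), but did so by limma-voom (0.0243) and with crossed numbers (0.0125). With the paralogs summed as 1 gene the log2 fold change was -0.48 ± 0.35 (SE; limma-trend adjusted p = 0.291) in the libraries labelled Atf3KO.

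The minor paralogs were present or absent by group. Bcl2a1a had 11 and 14 reads in the libraries labelled Atf3KO, 3 and 3 reads in JunKO and 0 reads in all Scramble and JunDKO libraries, among them the deepest library of the series. Bcl2a1d showed 0 reads in both libraries labelled Atf3KO, 2 and 3 in Scramble, 1 and 3 reads in those of JunKO, and 3 and 75 in those of JunDKO. Bcl2a1a and Bcl2a1d thus did not overlap between Scramble and the libraries labelled Atf3KO, in opposite directions. A group at 0 reads was given a floor of 3 reads over the group, which covers counting error of that group only. Counting error of the reads in the other group is not covered, so ratios to the floor are not firm limits. Bcl2a1a in the libraries labelled Atf3KO lay 2.61-fold above the floor of Scramble. Without Scramble replicate 1 or 2 that ratio was 1.23-fold or 1.38-fold. Bcl2a1d in Scramble, with 5 reads, lay 5.32-fold above the floor of the libraries labelled Atf3KO. That ratio was 3.31-fold and 2.01-fold without Atf3KO replicate 1 and 2. By limma-trend the adjusted p was 0.00301 for Bcl2a1a and 0.0277 for Bcl2a1d. The former is a description, since Bcl2a1a entered the test only through the Atf3KO-labelled and JunKO libraries, and it is no sign of stability that it was at most 0.0358 in the 13 alternatives that tested it. The latter was lost in 7 of 13, including each of the 4 that left out a library (adjusted p 0.0514 to 0.141). Fitted fold changes of these genes depend on the pseudocount and are not given as sizes.

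**Figure D2:**
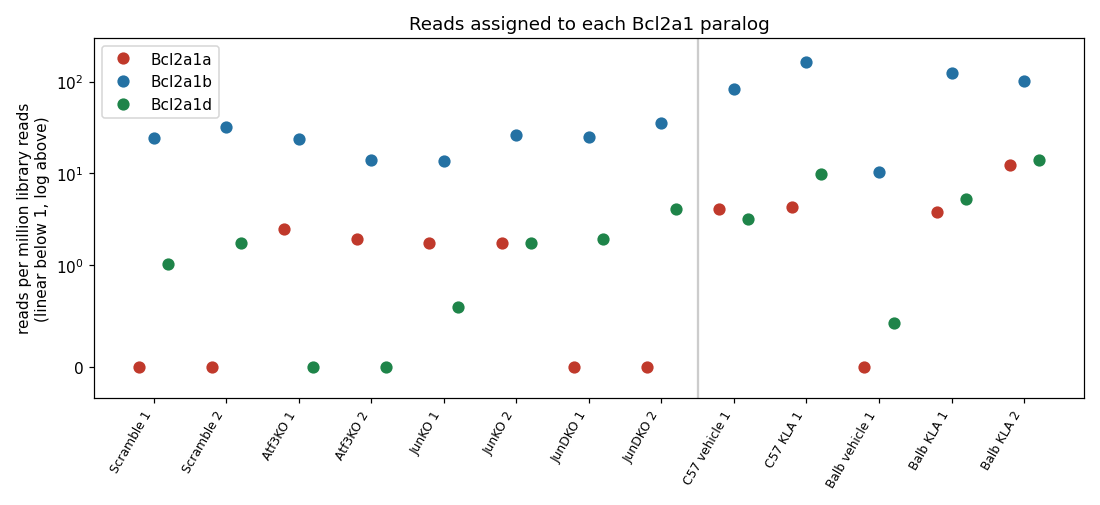
Reads of Bcl2a1a, Bcl2a1b and Bcl2a1d, scaled by library depth (CPM), in each of 13 libraries, on an axis that is linear below 1 and logarithmic above, with the grey line between iBMDM and TGEM libraries. Bcl2a1b led in every library. Bcl2a1a lay at 0 reads in the Scramble, JunDKO and Balb/cJ vehicle libraries and Bcl2a1d in both libraries labelled Atf3KO.

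In JunKO 0 of the 10 members passed the test, beside 0.281% of all tested genes (limma-trend, with 2 members at an unadjusted p under 0.05, Bcl2a1a and Bcl2, beside 7.88% of genes), and limma-voom on recovered reads called 0. The share of genes called was 0.196%. Bcl2a1a, with 6 reads in JunKO, lay 2.13-fold above the same floor for Scramble (limma-trend adjusted p = 0.116), and 1.00-fold or 1.13-fold without Scramble replicate 1 or 2. It entered the test only through the groups that held it, JunKO among them, so its p-values here are descriptions. It passed only without a filter on low values and with the GC trend removed, out of 13 alternatives (adjusted p 0.0214 to 0.905). In JunDKO 0 of the 10 members passed, beside 11.7% of all tested genes (limma-trend, with 1 member, Bid, at an unadjusted p under 0.05, beside 27.5%). By limma-trend 0 were called, beside 4.97% of genes, and by limma-voom 0, beside 560 of 10691 genes. The median log2 fold change there was 0.08 over the members and 0.23 over all genes tested. No count of members called changed in either comparison under any alternative run.

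**Figure D3:**
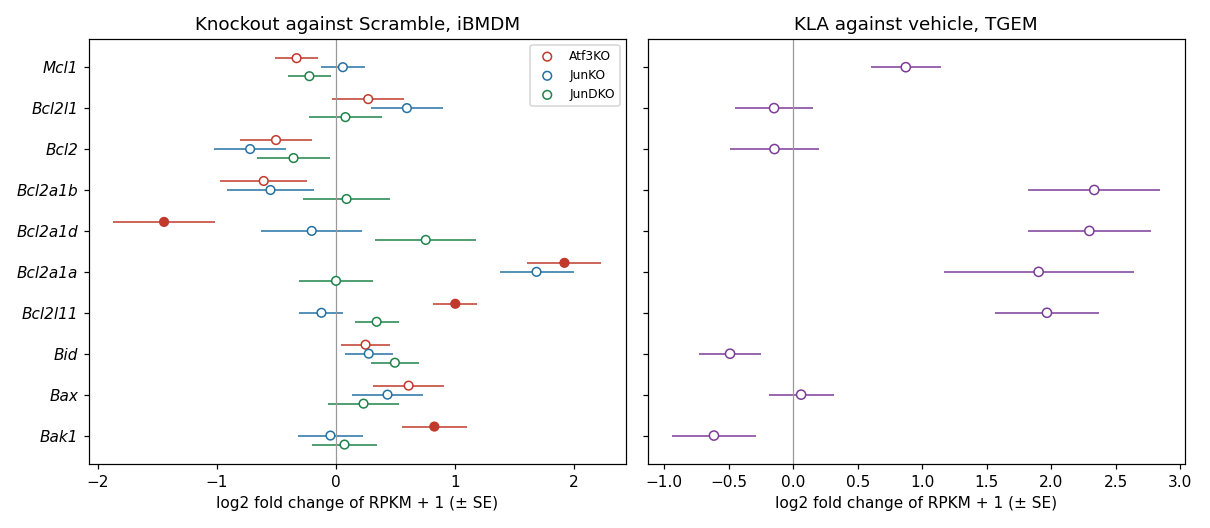
Log2 fold change of RPKM + 1 with its SE for each member, on the left for 3 knockout groups against Scramble in iBMDMs and on the right for KLA against vehicle in TGEMs. Filled points have a limma-trend adjusted p under 0.05, which held for Bcl2l11, Bcl2a1a, Bak1 and Bcl2a1d in the libraries labelled Atf3KO and for no member under KLA. The values of Bcl2a1a and Bcl2a1d rest on groups at 0 reads and depend on the pseudocount.

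Direct comparisons between knockout groups, which share libraries with the comparisons above, asked whether the members differ between the edited lines themselves. Between the libraries labelled Atf3KO and JunKO, Bcl2l11 rose by 1.13 ± 0.19 on the log2 scale (SE; limma-trend adjusted p = 0.00412), and it was the only member called, beside 9.71% of all tested genes. Of all tested genes 35.5% passed there, and Bak1 passed as well (0.87 ± 0.27, limma-trend adjusted p = 0.0399), which was lost in 8 of 14 alternatives. Between the libraries labelled Atf3KO and JunDKO 0 members were called by limma-trend, beside 12.2% of genes, and 0 by limma-voom, beside 1542 of 10691 genes. By limma-trend 4 had an unadjusted p under 0.05, beside 50.7%, and 3 members passed, beside 40.7% of all tested genes. They were Bcl2l11 (0.66 ± 0.19, SE; limma-trend adjusted p = 0.0229), Bcl2a1a and Bcl2a1d. The last 2 had 0 reads in 1 of the groups and reached the filter on low values only with the libraries of the other, so their passes are descriptions. Bak1 (42.5 and 74.8 against 34.5 and 31.6 RPKM) did not pass (0.75 ± 0.27, SE; limma-trend adjusted p = 0.0575) but did so in 6 of 14 alternatives, with a log2 difference of 0.35 to 1.16 and adjusted p of 0.00992 to 0.261 over all 14. On the floor of 3 reads over the group, Bcl2a1a in the libraries labelled Atf3KO lay 14.3-fold above the floor of JunDKO. Bcl2a1d in JunDKO lay 15.1-fold above the floor of the libraries labelled Atf3KO. Without JunDKO replicate 2 the same floor gave 1.11-fold and 7.49-fold, and without Atf3KO replicate 2 the latter was 5.72-fold. Most of the depth of JunDKO came from replicate 2, and the pass of Bcl2l11 was lost without either JunDKO library, without Atf3KO replicate 2 and in a fit of the 2 groups alone (adjusted p 0.0647 to 0.106). Between JunDKO and JunKO the test was passed by 1 member, Bcl2a1a (limma-trend adjusted p = 0.0150), beside 8.14% of all tested genes. With 0 reads in JunDKO, it entered that test only through the groups that held it. By limma-trend 0 members were called, beside 3.5% of genes, with 2 at an unadjusted p under 0.05 beside 24.9%. By limma-voom 0 were called, beside 402 of 10691 genes. Bcl2a1a in JunKO lay 11.7-fold above the same floor for JunDKO, a ratio set by JunDKO replicate 2. Without that library the 6 reads of Bcl2a1a in JunKO lay at 0.909 of the floor. Its pass was lost in 3 of 13 alternatives, without either JunDKO library and in the fit of the 2 groups alone.

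By the likeness of their levels over the 8 iBMDM libraries, the genes closest to Bcl2l11 among 4200 with a mean of at least 16 RPKM were Pgam5, Rad9a and Shisa5, with Pearson's r of 0.987, 0.985 and 0.982 on log2(RPKM + 1). The 8 points share their 4 groups, so these are descriptions.

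The TGEM comparison asked how the members respond to TLR4 activation for 1 h. Bcl2l11, Mcl1, Bcl2a1b and Bcl2a1d were higher in all 3 KLA libraries than in both vehicle libraries, and Bid and Bak1 lower. These were 4 of 10 members without overlap in the higher direction and 2 in the lower, where all tested genes gave 5.74% and 18%. No change of a member passed the test with 2 residual degrees of freedom (0 of 10, beside 1.53% of all tested genes by limma-trend), with 5 members at an unadjusted p under 0.05 beside 15% of genes. limma-voom on recovered reads called 2 members, Bcl2l11 and Bcl2a1b, beside 2.2% of all tested genes, where limma-trend called 0 members beside 1.13% of genes. In the same fit the activation genes Tnf, Nfkbia, Tnfaip3 and Junb rose by 7.42, 5.64, 4.12 and 3.77 on the log2 scale (limma-trend adjusted p = 0.000144, 0.000196, 0.000737 and 0.00521). The adjusted p of Junb was over 0.05 in 3 of 14 alternatives (up to 0.194), and those of the other activation genes stayed under it.

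Bcl2l11 measured 16.8 RPKM in the C57Bl/6EiJ vehicle library and 39.1 RPKM in the KLA library of the same title date. In Balb/cJ it measured 9.48 RPKM with vehicle and 80.5 RPKM with KLA of the same date, and 45.8 RPKM in the other KLA library. The ratio of KLA to vehicle was 2.33 in C57Bl/6EiJ and 8.49 in Balb/cJ within a date. Across strains the log2 change was 1.97 ± 0.40 (SE, 3 KLA and 2 vehicle libraries; limma-trend adjusted p = 0.0811). It was 1.17 without the Balb/cJ vehicle library and 2.56 without either C57Bl/6EiJ library. limma-voom on recovered reads gave an adjusted p of 0.000482 and a limma-trend fit of all 13 libraries 0.00368, and over all 14 alternatives it spanned up to 0.700.

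Among the restraining members, Mcl1 measured 226 RPKM with vehicle and 333 RPKM with KLA in C57Bl/6EiJ. In Balb/cJ it measured 174 RPKM with vehicle and 391 and 361 RPKM with KLA, so every KLA library lay above every vehicle library. Its log2 change was 0.87 ± 0.27 (SE; limma-trend adjusted p = 0.219, passing in 1 of 14 alternatives, the fit of all 13 libraries at 0.0274, with a highest value of 0.851). Bcl2l1 measured 22.4 RPKM with vehicle and 21.1 RPKM with KLA in C57Bl/6EiJ, and 38.3 RPKM with vehicle and 43.5 and 25.4 RPKM with KLA in Balb/cJ, an overlap of treatments. Bcl2 stayed between 0.886 and 1.84 RPKM in TGEMs.

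Bcl2a1b measured 110 RPKM with vehicle and 215 RPKM with KLA in C57Bl/6EiJ, against 13.5 RPKM with vehicle and 164 and 133 RPKM with KLA in Balb/cJ. The KLA values of the strains lay closer to each other than their vehicle values did. The ratio of KLA to vehicle within a date was 1.95 in C57Bl/6EiJ and 12.2 in Balb/cJ. The Balb/cJ vehicle value rested on 24 reads, against 531 to 2153 in the other 4 TGEM libraries. Of the reads of that library 76.3% were exonic, and 74.1% of those of Balb/cJ KLA replicate 2, against 83.2% to 86.4% in the other 3. The part of this difference in the ratio was not tested. Its log2 change across strains was 2.33 ± 0.51 (SE; limma-trend adjusted p = 0.102), and 0.96 without the Balb/cJ vehicle library. Without either C57Bl/6EiJ library it was 3.36 and passed the test (limma-trend adjusted p = 0.0237 without vehicle and 0.0231 without KLA, range over 14 alternatives 0.00726 to 0.692). With the paralogs summed the log2 change was 2.32 ± 0.50 (SE; limma-trend adjusted p = 0.0980).

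Bcl2a1d measured 3.99 RPKM with vehicle and 12.4 RPKM with KLA in C57Bl/6EiJ, and 0.539 RPKM (1 read) with vehicle and 6.59 and 17.5 RPKM with KLA in Balb/cJ (limma-trend adjusted p = 0.0852). Bcl2a1a measured 5.20 and 5.43 RPKM with vehicle and KLA in C57Bl/6EiJ. In Balb/cJ it had 0 reads with vehicle and measured 4.76 and 15.5 RPKM with KLA (limma-trend adjusted p over both strains = 0.298). Its reads with KLA lay 4.78-fold above the floor of 3 reads for vehicle, or 2.94-fold and 9.61-fold from either KLA library alone. Bcl2a1b held 79.5% of the paralog reads in Balb/cJ KLA replicate 2, the lowest share of the 13 libraries.

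The pro-apoptotic members other than Bcl2l11 lay lower or level with KLA. Bid measured 18.1 RPKM with vehicle and 14.4 RPKM with KLA in C57Bl/6EiJ, and 17.0 RPKM with vehicle and 10.7 RPKM in both KLA libraries in Balb/cJ (log2 change -0.49 ± 0.24, SE; limma-trend adjusted p = 0.378). Bak1 measured 78.0 RPKM with vehicle and 59.96 RPKM with KLA in C57Bl/6EiJ, and 103 RPKM with vehicle and 77.6 and 44.2 RPKM with KLA in Balb/cJ. The KLA values of Bak1 lay below both vehicle values, the highest of them by little (log2 change -0.62 ± 0.32, SE; limma-trend adjusted p = 0.409). The median log2 change of all tested genes was -0.15 in this comparison. Bax differed little, at 93.1 and 92.8 RPKM in C57Bl/6EiJ and at 68.4, 70.3 and 77.5 RPKM in Balb/cJ (log2 change 0.06 ± 0.25, SE).

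**Figure D4:**
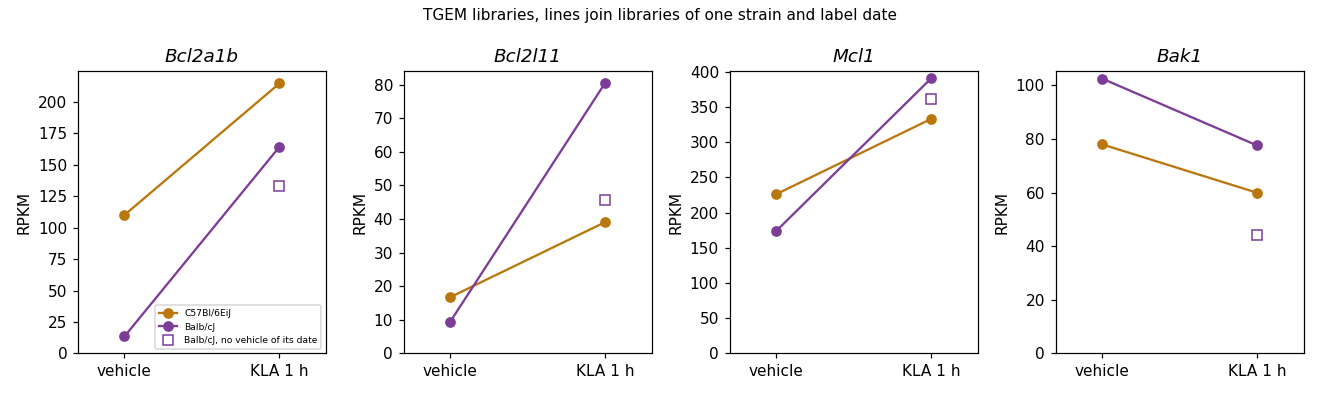
RPKM of Bcl2a1b, Bcl2l11, Mcl1 and Bak1 in the 5 TGEM libraries by treatment, with linear axes from 0. Lines join the vehicle and KLA libraries of 1 strain and title date, and the open square is the Balb/cJ KLA library without a vehicle library of its date. Bcl2a1b started at 110 RPKM in C57Bl/6EiJ and 13.5 RPKM in Balb/cJ, while Bak1 lay lower with KLA in both.

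Whether the KLA change differs between strains was tested by the interaction of treatment and strain, which left 1 residual degree of freedom. By limma-trend 0 of the 10 members passed and 0 of all tested genes (0%), with 2 members at an unadjusted p under 0.05 beside 8.06% of genes, Bcl2a1b (log2 difference 2.40 ± 0.56, SE; adjusted p = 0.494) and Bcl2a1a (adjusted p = 0.589), and limma-voom called 0. Between the strains themselves, with treatment in the fit, 0 of the 10 members passed by limma-trend, beside 2.31% of all tested genes, and 0 were called beside 1.16%. Only Bcl2a1b (1 of 10) had an unadjusted p under 0.05, beside 21.4% of genes (Balb/cJ over C57Bl/6EiJ log2 -1.57 ± 0.51, SE, limma-trend adjusted p = 0.150). By limma-voom 0 members were called, beside 345 of 10357 genes. Bax was lower (68.4 to 77.5 against 92.8 and 93.1 RPKM) and Bcl2l1 higher (25.4 to 43.5 against 21.1 and 22.4 RPKM) in all 3 Balb/cJ libraries than in both C57Bl/6EiJ libraries, with a limma-trend adjusted p of 0.423 and 0.252. The share of all tested genes without overlap between strains is not given here, so this is a description. Strain coincides with title date, genome used for alignment and a GC trend of fold changes (Spearman's rho = -0.44 across 10318 genes), so strain and these cannot be told apart.

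TGEMs with vehicle were set beside Scramble iBMDMs to show how the family differs between primary and immortalised macrophages. Here 4 of the 10 members passed the test, beside 49.9% of all 10929 tested genes, and 2 were called, beside 19.9%. Bak1 rose and Bid fell in TGEMs, and with smaller margins Bcl2 fell and Bcl2a1a rose. Bak1 measured 78.0 and 103 RPKM in the C57Bl/6EiJ and Balb/cJ vehicle libraries against 33.0 and 29.9 RPKM in Scramble, a log2 difference of 1.48 ± 0.33 (SE; limma-trend adjusted p = 0.00586), and passed in all 13 alternatives. Bid measured 18.1 and 17.0 RPKM against 42.4 and 32.9 RPKM (-1.05 ± 0.20, SE; limma-trend adjusted p = 0.00265), and passed in 12 of 13, with an adjusted p of 0.0505 in a fit of the 4 libraries alone.

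Bcl2 measured 0.974 and 1.84 RPKM against 2.59 and 4.87 RPKM (-0.96 ± 0.27, SE, limma-trend adjusted p = 0.0190). That pass was lost in 6 of 13 alternatives, with a highest adjusted p of 0.151. Among them were the fits without Scramble replicate 2 (-0.60) and without the C57Bl/6EiJ vehicle library (-0.69). Bcl2a1a rested on the C57Bl/6EiJ vehicle library, which held 47 reads, while Balb/cJ vehicle and Scramble held 0 reads. It lay there 5.00-fold above the floor of 3 reads for Scramble (2.35-fold and 2.65-fold without Scramble replicate 1 and 2). This is given as a description (limma-trend adjusted p = 0.0291, lost in 7 of 13 alternatives). Bcl2a1b differed between the vehicle libraries, with 110 RPKM in that of C57Bl/6EiJ above and 13.5 RPKM in that of Balb/cJ below the Scramble values of 32.04 and 42.3 RPKM. Bcl2l11 (16.8 and 9.48 RPKM) and Bcl2l1 (22.4 and 38.3 RPKM) lay above Scramble without passing (limma-trend adjusted p = 0.130 and 0.175). Bcl2l11 passed when library medians were set equal, under quantile normalization and in 3 more of 13 alternatives, with adjusted p from 0.00842 to 0.776. Bcl2l1 passed under those same 2 scalings (lowest adjusted p 0.0289), and Mcl1, which overlapped Scramble, with equal medians (0.0153) and with the GC trend removed (0.00894). Bax measured 93.1 and 68.4 RPKM against 125 and 79.4 RPKM, an overlap, and did not pass (-0.32 ± 0.29, SE; limma-trend adjusted p = 0.394), but with the GC trend removed it was -0.72 and passed (0.00401), the only 1 of 13 alternatives to do so. The median log2 fold change was 0.21 over the members and -0.32 over all tested genes. Cell kind coincides with title date and with culture, and these cannot be told apart. In TGEM vehicle libraries the summed markers of B lymphocytes were 14.5 and 10.1 RPKM and those of mesothelial cells and fibroblasts 23.7 and 30.4 RPKM, against at most 0.443 and 0.106 RPKM in Scramble, and macrophage markers summed to 8015 and 11010 RPKM against 22260 and 23820 RPKM. Among the latter Adgre1, which encodes F4/80, measured 60.7 and 31.1 RPKM against 669 and 744 RPKM. The part of these marker levels in the differences of the members was not tested.

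Summed by role, the restraining members made up 71.9% to 75.7% of the RPKM of all 10 members in the KLA libraries, 53.6% and 64.2% in the vehicle libraries and 35.5% to 61.7% in iBMDMs. The effectors made up 16.6% to 19.2% with KLA, 29.8% and 40.2% with vehicle and 27.7% to 52.2% in iBMDMs. The BH3-only members Bcl2l11 and Bid made up 6.73% to 10.7% with KLA (53.4 to 91.2 RPKM), 6.07% and 6.22% with vehicle (34.9 RPKM in C57Bl/6EiJ and 26.5 RPKM in Balb/cJ) and 10.6% to 16.9% in iBMDMs. The lowest restraining and highest effector share both belonged to Atf3KO replicate 2, where Bax and Bak1 summed to 269 RPKM. Mcl1 alone was 26.1% to 49.4% of the members' RPKM over all 13 libraries, and the Bcl2a1 genes 3.29% (Balb/cJ vehicle) to 29.3% (C57Bl/6EiJ KLA).

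**Figure D5:**
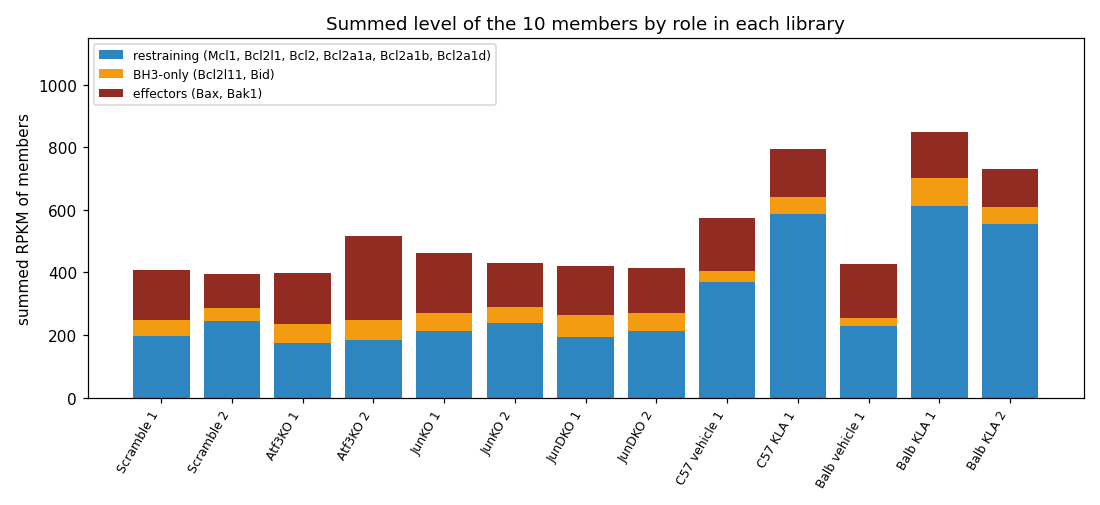
Summed RPKM of the 10 members in each library, stacked by role as restraining members, BH3-only members and effectors, on a linear axis from 0. The restraining sum was 554 to 611 RPKM in the 3 KLA libraries and at most 369 RPKM in the other 10 libraries.

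Genes that act around the family were counted from 4 lists, of other BCL2 family genes, of the apoptosome and caspases, of inhibitors and the death receptor pathway, and of upstream regulators. In the libraries labelled Atf3KO 9 of 16, 12 of 12, 11 of 11 and 8 of 8 were tested in that order. Called higher were 1, 1, 1 and 2 genes and called lower 1, 0, 1 and 1. Together this was 5 higher (12.5%) and 3 lower (7.5%) of 40 genes, beside 7.84% and 4.69% of all tested genes. The largest changes among called genes were those of Bbc3, which encodes the BH3-only protein PUMA (20.2 and 62.0 RPKM against 4.73 and 4.15 RPKM, log2 2.75 ± 0.43, SE), and Bnip3l, a mitophagy receptor (4.74 against 23.3 RPKM, -2.06 ± 0.27). Tradd, an adaptor of TNF receptor 1, rose by 1.74 ± 0.24, and E2f1, a cell cycle factor that can induce apoptosis, by 1.62 ± 0.29. Their limma-trend adjusted p was 0.00270, 0.00150, 0.00163 and 0.00434, and all 4 passed in all 14 alternatives. The log2 change of Bbc3 spanned 1.52 to 3.54 over these alternatives, with 1.96 without Atf3KO replicate 2 and 3.54 without Atf3KO replicate 1. Pmaip1, which encodes the BH3-only protein NOXA and was named after its values were seen, fell from 3.33 and 6.18 RPKM in Scramble to 0 and 0.365 RPKM (log2 -2.25 ± 0.38, SE; limma-trend adjusted p = 0.00348). It stayed below the level needed for a call. In JunKO none of the 4 lists held a gene past the test (0 of 40 tested by limma-trend, beside 0.281% of all tested genes), and 4 of the 40 had an unadjusted p under 0.05, beside 7.88%.

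In JunDKO the lists held 3 genes called lower (7.5% of 40 tested) and 2 called higher (5%), beside 2.27% and 2.69% of all tested genes. The largest were Fas, a death receptor (2.01 against 17.7 RPKM, log2 -2.62 ± 0.30, SE; limma-trend adjusted p = 0.00120), and Birc5, which encodes survivin and follows cell division (65.9 against 17.8 RPKM, 1.82 ± 0.28, adjusted p = 0.00527). Bnip3, another mitophagy receptor, fell by 1.53 ± 0.33 (limma-trend adjusted p = 0.0216) and Mdm2, which marks p53 for degradation, fell by 1.32 ± 0.19 (limma-trend adjusted p = 0.00334). Bnip3 was lost without any single Scramble or JunDKO library (highest adjusted p 0.171) and Birc5 without Scramble replicate 1 or JunDKO replicate 2 (highest 0.0666). With KLA 1 of 38 tested genes of the lists was called (2.63%), beside 1.13% of all tested genes. It was Cflar, which encodes the caspase-8 inhibitor c-FLIP. Cflar measured 9.43 RPKM with vehicle and 50.1 RPKM with KLA in C57Bl/6EiJ, and in Balb/cJ within a date 14.1 and 92.8 RPKM, with 55.5 RPKM in the other KLA library (log2 2.28 ± 0.30, SE; limma-trend adjusted p = 0.0120). It was lost in 5 of 14 alternatives, without a filter on low values and without the C57Bl/6EiJ vehicle, C57Bl/6EiJ KLA, Balb/cJ vehicle or first Balb/cJ KLA library (highest adjusted p 0.330).

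Between TGEM vehicle and Scramble the lists held 3 genes called higher (7.69% of 39 tested) and 9 called lower (23.1%), beside 7.04% and 12.8% of all tested genes. The largest were Bnip3 (-2.16 ± 0.32), Fas (-1.83 ± 0.38), Birc5 (-1.80 ± 0.29) and Trp53 (-1.76 ± 0.36), the gene of p53, as log2 fold changes with SE. Their limma-trend adjusted p was 0.000768, 0.00440, 0.00110 and 0.00380, and all 4 passed in all 13 alternatives.

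RefSeq promoter windows (GRCm38.p6), from 250 bases before to 50 after a start site, were available for all 10 members (13 windows). The AP-1 letters TGACTCA, read on both strands, stood in 0 of the 13 and in 5.20% of 32851 windows of all genes. Their absence says only that these letters are not in these windows. A form of the NF-κB motif, searched on both strands of the same windows, stood in 2 of the 13, those of Mcl1 and Bcl2l1, and in 1.63% of all windows. A match describes letters, not binding.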

How the data were processed

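PolyA RNA-seq libraries were made with a dUTP stranded protocol and aligned by the authors with STAR (default settings). The genome was mm10, and for Balb/cJ reads a version of mm10 made for that strain. The deposited table holds RPKM per gene model, which the authors computed with HOMER over exons. Tool versions and the strand option are not given in the sources used here, so antisense or overlapping transcripts may add to a gene. Of the values worth at most 50 reads, 100% were whole reads, which gave each library's depth and reads per gene. The tolerance was 0.05 reads, or the rounding error of the deposited value where that was larger. The series' 4 GRO-seq samples are not analysed here.

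Samples were grouped by their labels. The deposited values are RPKM rather than counts, so limma-trend (limma 3.58.1, R 4.3.3) was the main test in place of the study's count model. It was run on log2(RPKM + 1) over genes with a mean of at least 1 RPKM in the fitted libraries. Fold changes are on that scale, which understates the change of low genes. The 8 iBMDM libraries shared a fit by group, the 5 TGEM libraries a fit by treatment and strain, with the interaction added in another, and TGEM vehicle was compared with Scramble in a fit of all 13 libraries. The Benjamini-Hochberg adjustment covered all tested genes. Called genes had an adjusted p under 0.05, a change of at least 2-fold and a group mean of 16 RPKM or more. Genes outside the family were named by the largest changes among called genes of each list, at most 4 per comparison. The alternatives were other pseudocounts, no low-value filter, equal medians, quantile normalization, limma-voom on recovered reads, fewer or more libraries per fit, a replicate block and each library left out. A GC correction, a fit without the libraries labelled Atf3KO and a crossed block were chosen after seeing the data, as were the floors with a library left out. The code was tested on simulated data. Members and lists were chosen with earlier results of these data known. Precision is limited by 1 to 2 libraries per group, and floors for 0 reads cover only the counting error of the group at 0 reads. RefSeq sequences (GRCm38.p6) were matched by symbol for 10 of 10 members.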

Additional observations from a re-analysis of the deposited data

How the results depend on the processing

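Of 100 tests of a member in a comparison, 14 passed at an adjusted p under 0.05 and 6 of these passed under every alternative run, while 18 others passed under at least 1. Among the 6 were, for the libraries labelled Atf3KO, Bcl2a1a against Scramble and JunDKO and Bcl2a1d against JunDKO. These entered the test only through groups that held them, so they are descriptions and no sign of stability. The count of members called in the libraries labelled Atf3KO against Scramble was 1. It was 0 with a pseudocount of 5, with equal library medians, with quantile normalization and with a log2 fold change of at least 2, 3 without an RPKM minimum, 4 by adjusted p alone and 0 to 2 when a library was left out. Against JunKO the count was 1. It was 0 under those same 4 settings, 2 by adjusted p alone and 1 to 2 when a library was left out. Against JunDKO the count of 0 became 2 without an RPKM minimum, 3 by adjusted p alone and 0 to 1 when a library was left out. Between JunDKO and JunKO it became 1 without an RPKM minimum and 1 by adjusted p alone. For KLA the count of 0 became 2 with limma-voom, 2 in the fit of all 13 libraries and 0 to 1 when a library was left out, while the calls over all genes went from 117 to 228 and 206 in the first 2 of these, and for strain it became 1 in the fit of all 13 libraries, where the calls over all genes went from 120 to 338. For TGEM vehicle against Scramble the count of 2 became 1 with a pseudocount of 5, equal medians, quantile normalization, the GC correction or the 4 libraries alone, 4 by adjusted p alone, 0 at a log2 fold change of at least 2 and 1 to 2 when a library was left out. Bcl2a1b reversed there, from 0.08 to -1.38 without the C57Bl/6EiJ vehicle library, and was 1.55 without that of Balb/cJ. The cause of these shifts was not tested, apart from settings that raise or drop a limit by construction. The iBMDM replicate numbers share only a number. Deviations of same-numbered libraries correlated at 0.185 to 0.225 between Scramble, JunKO and JunDKO and at -0.215 to -0.120 between these and the libraries labelled Atf3KO. With the replicate block the counts of members called were 1, 0, 0, 0, 1 and 0 for the libraries labelled Atf3KO, JunKO and JunDKO against Scramble, and for Atf3KO against JunDKO, Atf3KO against JunKO and JunDKO against JunKO. Over all genes, the block moved the calls in JunKO against Scramble from 21 to 8, and in the libraries labelled Atf3KO against Scramble from 1339 to 1320, or 1391 with crossed numbers. Bak1 missed the threshold under the block against Scramble and JunKO (adjusted p = 0.0628 and 0.0598), and Bcl2a1d against JunKO passed (0.0351). With 1553296 reads in the shallowest library, Bcl2a1a and Bcl2a1d rested on few reads, and their absence from a group means only that they were not detectable at this depth.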
